A study of Mus musculus with 3 samples.

Results

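The hairpins of miR-182 and miR-183, genes Mir182 and Mir183 on mouse chromosome 6, were examined for RNA bound by AGO2. Members were the peaks with a midpoint inside the span of either gene, or within 5 kb of it, on either strand. They numbered 5 of the 6911 peaks in 4 lists. The genes were chosen by their peaks in these lists, so their presence in the lists, their scores and their positions are given as a description, with no test. AGO2 was pulled down with antibody clone 2D4 from P19, a mouse embryonal carcinoma line, in 3 HITS-CLIP libraries that formed 1 group. HITS-CLIP crosslinks RNA to protein in the cell and sequences the fragments attached to the pulled-down protein. No treated or control group was compared. Each list was given once for the whole series and is named after its caller (CIMS, Piranha, PIPE-CLIP or Pyicoclip). How the libraries were combined is not stated. No spread between libraries could thus be given, and the depth of each library is unknown.

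A microRNA is cut from a hairpin in a longer primary transcript, and 1 arm of the hairpin duplex is kept by an Argonaute protein such as AGO2. Bases 2 to 8 of the kept arm, the seed, pair with target RNAs, which are then repressed. The miR-183 cluster, made up of miR-183, miR-96 and miR-182, is best known from sensory organs such as the retina and the inner ear, and it is also expressed in pluripotent stem cells. Its microRNAs have near-identical seeds and are transcribed together.

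The mature 5p arms show how alike the members of the cluster are. They are printed 5′ to 3′ with the seed in capitals, from RefSeq on GRCm38.p6, the assembly of mm10. All lie on the minus strand of chromosome 6, and mmu-miR-1271-5p, from the plus strand of chromosome 13, is added because it has the seed of mmu-miR-96-5p.
mmu-miR-182-5p: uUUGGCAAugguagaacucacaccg
mmu-miR-183-5p: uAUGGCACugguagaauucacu
mmu-miR-96-5p: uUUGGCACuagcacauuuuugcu
mmu-miR-1271-5p: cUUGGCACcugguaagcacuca

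Counted from the 5′ end of the arm, the seed of miR-182-5p differed from that of miR-96-5p by A8C, and the seed of miR-183-5p differed from it by A2U. Between miR-182-5p and miR-183-5p the seed differed at 2 positions, U2A and A8C. Outside the seed these arms were alike, and over the first 22 positions together they were equal at 18. Against miR-96-5p, miR-182-5p was equal at 12 of 23 positions and miR-183-5p at 13 of 22. No other mature microRNA of the RefSeq table, of 1679 names, had the seed of miR-182-5p or of miR-183-5p.

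The peaks are shown next, since they carry the main observation: each met the 5p arm of its hairpin and none met the 3p arm. The Mir183 Piranha peak had only 50% of its bases in the arm. Bases of the mature 5p arm are in capitals and bases of the hairpin outside it are in lower case. The sequences were read from the RefSeq hairpins at the peak positions in mm10, on the minus strand.
Mir182 Piranha peak, chr6:30165961-30165980: AAUGGUAGAACUCACACCGg
Mir182 Pyicoclip peak, chr6:30165958-30165990: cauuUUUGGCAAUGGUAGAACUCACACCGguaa
Mir182 PIPE-CLIP peak, chr6:30165954-30165987: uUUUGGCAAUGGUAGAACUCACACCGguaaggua
Mir183 Piranha peak, chr6:30169701-30169720: AGAAUUCACUgugaacaguc
Mir183 Pyicoclip peak, chr6:30169706-30169736: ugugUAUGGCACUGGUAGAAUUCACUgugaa

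Mir182, at chr6:30165918-30165992, had peaks in 3 lists. Piranha gave a peak of 20 nt with a score of 20, Pyicoclip a peak of 33 nt with a score of 27 and PIPE-CLIP a cluster of 34 nt with a score of 11. The scores are the authors' own values, with no stated unit, and were compared only within a list. The lowest score in each list was 10. All 3 peaks shared 20 nt, and the Pyicoclip and PIPE-CLIP peaks shared 30 nt.

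Mir183, at chr6:30169668-30169737, had peaks in 2 lists. The Piranha peak of 20 nt and the Pyicoclip peak of 31 nt each had a score of 24, and they shared 15 nt. CIMS, which looks for sites with mutations induced by crosslinking, held no peak at either hairpin. Each of the 5 peaks was on the minus strand, the strand of both genes. In microRNA genes with a strand in the RefSeq table, 36 of 36 Piranha peaks, 6 of 6 PIPE-CLIP clusters and 43 of 44 stranded Pyicoclip peaks were on the strand of the gene, so the strand match was not particular to the cluster.

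No peak lay anywhere else in the cluster. Mir96, the third microRNA, lies 116 nt from Mir183 at chr6:30169446-30169551, and its span held 0 peaks in the 4 lists. As no list held a score under 10, a weaker signal at Mir96 cannot be seen here. Mirc35hg, the long non-coding RNA gene whose span of 15486 nt holds all 3 hairpins, had the same 5 peaks and no further peak. The nearest protein-coding genes, Nrf1, which encodes a transcription factor of nuclear genes for mitochondrial proteins, and Ube2h, a ubiquitin-conjugating enzyme gene, had 0 peaks each. The members all lay inside a hairpin span, at a distance of 0 nt. The next peak outside the 5 kb window was 618 kb away in Piranha and in Pyicoclip, in Tnpo3, 332 kb away in PIPE-CLIP, in Tmem209, and 10275 kb away in CIMS.

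**Figure D1:**
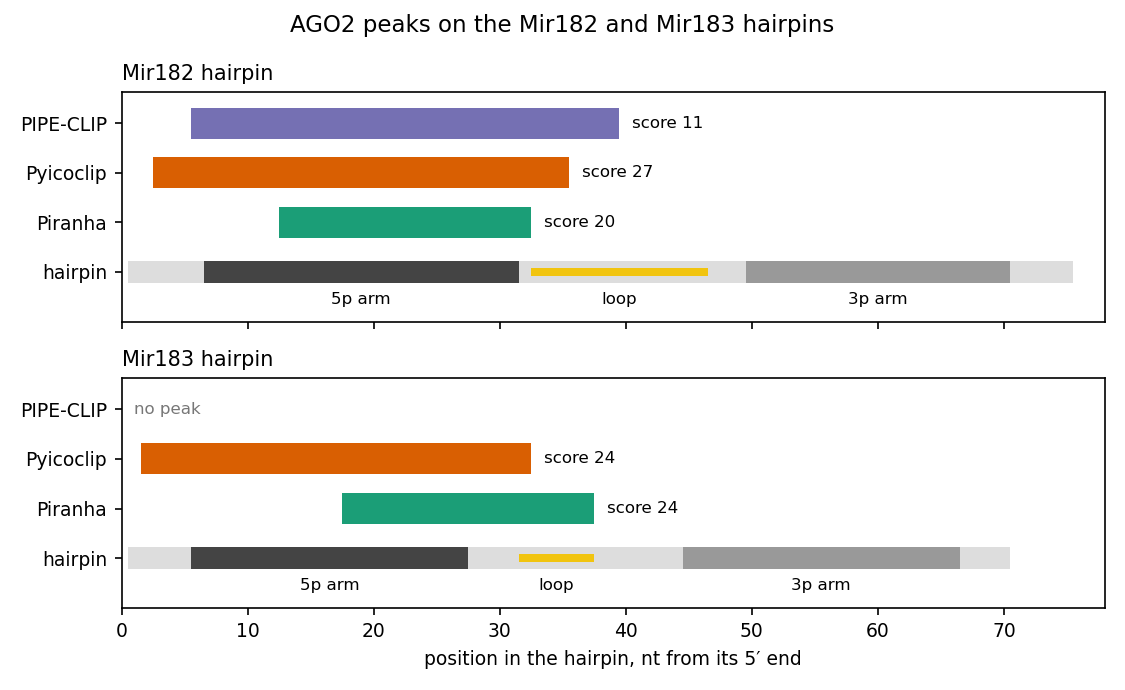
Position of each peak on the Mir182 and Mir183 hairpins, in nt from the 5′ end of the hairpin, with the mature arms in dark and mid grey, the predicted loop in yellow and the score beside each bar. The peaks cover the 5p arm or its 3′ part in both hairpins, none reaches the 3p arm, and PIPE-CLIP has no peak on Mir183.

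The second question was which part of the hairpin the peaks covered. The Pyicoclip peak of Mir182 ran from base 3 to base 35 of the 75-nt hairpin and covered all 25 nt of miR-182-5p, which lies at bases 7 to 31. The PIPE-CLIP cluster ran from base 6 to base 39 and also covered the whole arm. At Mir183 the Pyicoclip peak ran from base 2 to base 32 of 70 and covered all 22 nt of miR-183-5p. The 3 peaks that covered a whole arm thus held the complete seed.

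The Piranha peaks began further into the arm. At Mir182 the peak ran from base 13 to base 32 and shared 19 of the 25 nt of the arm, with 2 of the 7 seed bases. At Mir183 it ran from base 18 to base 37 and shared 10 of 22 nt, with 0 seed bases. In the minimum free energy fold of each hairpin by RNAfold, the loop was at bases 33 to 46 in Mir182 and at bases 32 to 37 in Mir183. At Mir182 the Piranha peak held 0 nt of the loop, the Pyicoclip peak 3 nt and the PIPE-CLIP cluster 7 nt. At Mir183 the order was the other way, with all 6 nt of the loop in the Piranha peak and 1 nt in the Pyicoclip peak.

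The offset of the Piranha peaks was not particular to the cluster. All 1417 Piranha peaks started on a grid of 20 nt, and 1298 were 20 nt wide. Of 16 minus-strand mature arms met by a peak of 20 nt, 14 had their 3′ end in the peak and 2 their 5′ end, with the peak of Mir21a counted on both of its arms. Of 18 plus-strand arms, 18 had their 5′ end in the peak and 0 their 3′ end. Whichever the strand, the bin thus mostly lay at the end of the arm with the lower coordinate, which for both members is the 3′ end. The missing seed bases at Mir183 cannot be told apart from this placement.

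The 3p arms had no peak. No peak shared a base with miR-182-3p, at bases 50 to 70, or with miR-183-3p, at bases 45 to 66. Among the 50 microRNA genes with a Pyicoclip peak, 24 had peaks on the 5p arm alone, 13 on the 3p arm alone and 3 on both. For the other 10, no overlap with an arm named 5p or 3p was found. In Piranha the numbers were 17, 14, 2 and 4 of 37 genes. Mir182 and Mir183 were thus in the largest class of both lists. Only 1072 of 1228 microRNA genes had a sequence, so the last class can include genes with no listed arm.

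Around the arm, the Pyicoclip peaks of the cluster began early. They started 4 nt before the 5′ end of the mature arm at both hairpins, and ended 4 nt past its 3′ end at Mir182 and 5 nt past it at Mir183. Over the 42 arms covered whole by a Pyicoclip peak of at most 60 nt, on the strand of the gene or with no strand, the start lay 1 to 8 nt before the arm, with a median of 2 nt, and the end lay 1 to 20 nt past it, with a median of 4 nt. Starts of at least 4 nt before the arm were found at 6 of the 42, and Mir182 and Mir183 were 2 of these. The others, named after their values were seen, were Mir181b-1, Mir92b, Mir181a-2 and Mir301. The longest starts, 6 nt at the 3p arm of Mir181a-2 and 8 nt at Mir301, came from peaks with no strand. The 3′ ends of the members were near the median. Peak ends are the callers' and not those of single reads, and what sets them was not tested.

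**Figure D2:**
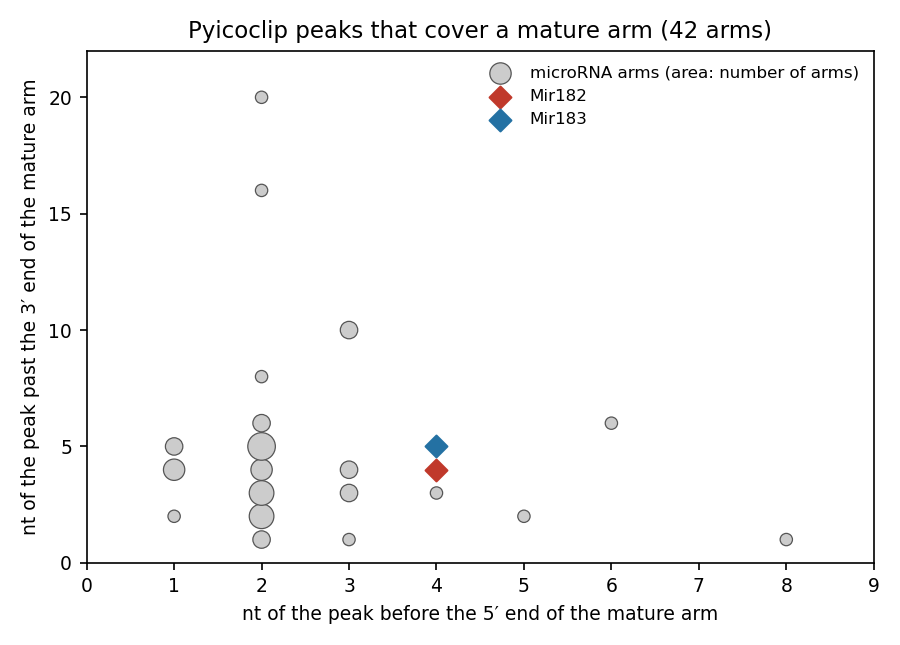
Length by which each Pyicoclip peak reaches beyond the 5′ end (x axis, nt) and the 3′ end (y axis, nt) of the mature arm it covers, for 42 arms, with the circle area giving the number of arms at a point. Mir182 and Mir183 both sit at 4 nt on the x axis, where the median is 2 nt, and at 4 and 5 nt on the y axis, where the median is 4 nt.

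The third question was how the peaks scored. In Piranha, Mir183 ranked 63 of 1417 peaks and Mir182 ranked 95, which put them at percentiles 95.3 and 92.6 of the list, with peaks of the same score counted at 50%. In Pyicoclip, Mir182 ranked 133 and Mir183 ranked 173 of 2068 peaks, at percentiles 93.4 and 91.3. The order of the 2 hairpins was thus opposite in the 2 lists. With no spread between libraries, the hairpins cannot be ordered by their binding.

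In PIPE-CLIP, the Mir182 cluster was at percentile 21.5 and shared its score of 11 with 481 of the 3257 clusters, itself included. It was among the narrowest of the list, in which the median width was 85 nt. Only 6 PIPE-CLIP clusters were 34 nt wide or less, and 3 of these were on microRNA genes, namely Mir182, Mir181a-1 with 33 nt and Mir181b-2 with 31 nt. The other 5 PIPE-CLIP clusters in microRNA genes were 67 to 80 nt wide.

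Among microRNA genes the pair ranked near the top in Piranha and Pyicoclip, but not in PIPE-CLIP, where Mir182 was near the bottom and Mir183 had no peak. Of 1228 annotated microRNA genes, 3.01% had a peak in Piranha, 4.07% in Pyicoclip, 0.651% in PIPE-CLIP and 0.163% in CIMS, and 4.23% in any list. These shares are printed as background, since the peaks chose the members. In Piranha, Mir183 shared rank 2 of 37 genes with Mir181b-2, below Mir181a-1 with a score of 30, and Mir182 shared rank 4 with Mir296. The genes just below them, Mir92-1 and Mir92b, had 19, and the median microRNA gene had 13. In Pyicoclip, Mir182 was at rank 3 of 50 genes, between Mir181a-1 with 30 and Mir6240 with 26. Mir183 shared rank 5 with Mir181b-2, and Mir296 followed with 21, against a median of 13. In PIPE-CLIP, Mir182 was at rank 7 of 8 genes, just below Mir93 and Mir181a-1 with 12 each and above Mir181b-2 with 10.

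**Figure D3:**
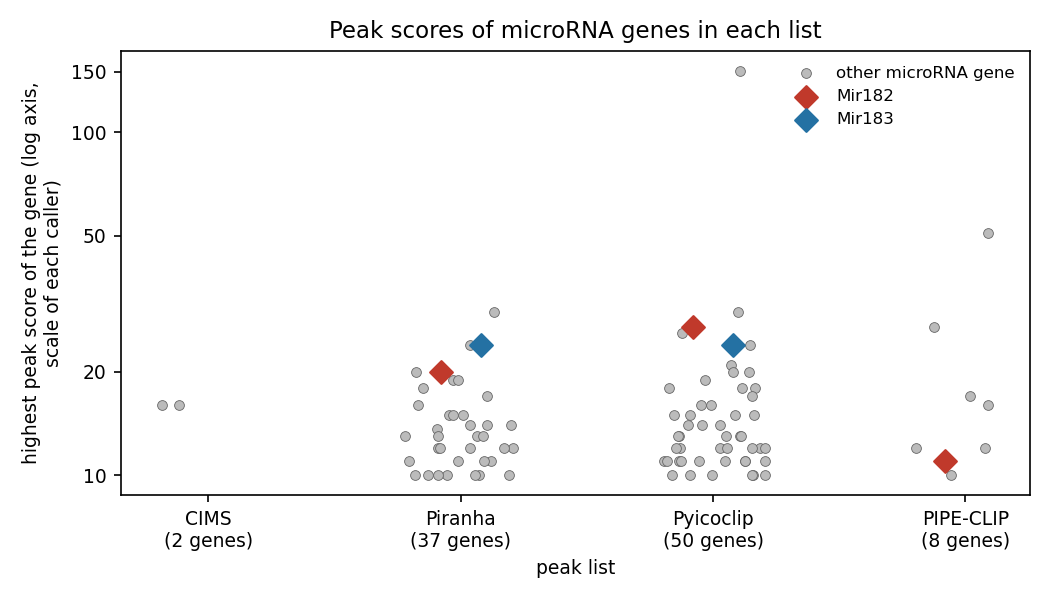
Highest peak score of each microRNA gene in each list, on a log axis in the scale of each caller, with Mir182 and Mir183 as diamonds and other genes as circles. In Piranha and Pyicoclip both members lie between 20 and 27, above the median of 13 in each list, while in PIPE-CLIP Mir182 lies at 11, below the median of 14.

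The microRNA genes most like the members were found by the lists they were in and then by the mean difference in score percentile over those lists. Mir182 was in Piranha, Pyicoclip and PIPE-CLIP, as were 4 other genes, and over these 3 lists the closest were Mir181a-1, with a mean difference of 6.34 percentile points, and Mir181b-2, with 6.40. Mir93 followed with 25.5 and Mir6236 with 29.1. Mir183 was in Piranha and Pyicoclip alone, as were 29 other genes, and over these 2 lists the closest were Mir296 with 2.51 percentile points, Mir92-1 with 4.45, Mir92b with 5.51, Mir10b with 10.2 and Mir181a-2 with 16.1. The mature arms of Mir181a-1 and Mir181b-2 are printed for contrast, since they come with like scores and another seed.
mmu-miR-181a-5p: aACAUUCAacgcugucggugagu
mmu-miR-181b-5p: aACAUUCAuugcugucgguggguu
None of the other 44 mature microRNAs under a peak had the seed of miR-182-5p or miR-183-5p. This follows from the RefSeq table, where no other mature microRNA has either seed, and is not a result about binding. The mature arms miR-181a-5p and miR-181b-5p are each encoded by 2 genes, and which copy the reads came from was not tested.

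The fourth question was how the pair compares with other clusters of microRNA genes. Taking genes within 5 kb of their neighbour as a cluster, 18 of 93 clusters had a peak in any list and 13 had peaks in at least 2 genes. The cluster of Mir182, Mir96 and Mir183 had peaks in 2 of its 3 genes. It was 1 of 4 clusters with a PIPE-CLIP peak, beside both miR-181 clusters and the cluster of Mir25, Mir93 and Mir106b. In 5 clusters every gene had a peak, all of them pairs, among them Mir181a-1 with Mir181b-1 and Mir296 with Mir298.

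Scores within clusters were compared over genes with a peak only, so Mir96 was left out of its own cluster. In both Piranha and Pyicoclip, the lower of Mir182 and Mir183 scored above the lowest such gene of every other cluster with at least 2. Counted with Mir96, the cluster has a gene without a score, whereas 5 other clusters had a peak in every gene in any list. The pair differed by 3 in Pyicoclip and by 4 in Piranha. In the 13 Pyicoclip clusters with peaks in at least 2 genes, the difference between the highest and the lowest gene ran from 1 to 15. It had the same range in Piranha. In both lists the pair lay inside this range, with some clusters closer together and others further apart. The lower of the pair had a score of 24, and in the other 12 clusters the lowest gene had at most 18. In the 7 such clusters of Piranha the lower of the pair had 20, and elsewhere the lowest gene had at most 15. The widest difference in both lists, 15, was between Mir181a-1 with 30 and Mir181b-1 with 15.

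**Figure D4:**
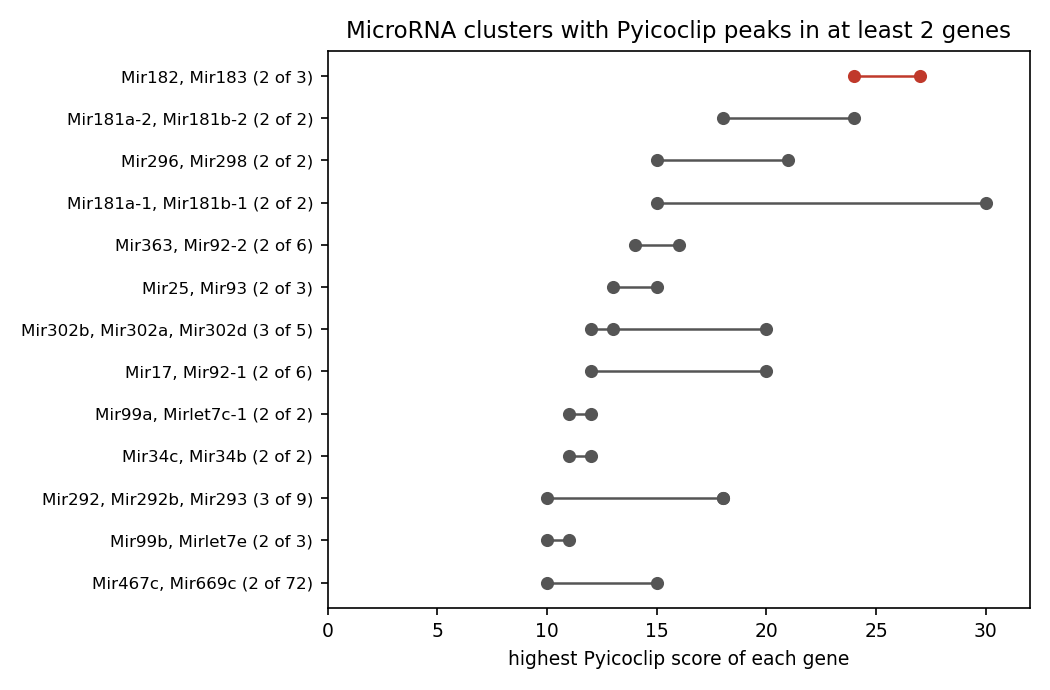
Highest Pyicoclip score of each gene (x axis, scale of the caller) in the 13 microRNA clusters with peaks in at least 2 genes, with the number of genes with a peak of those annotated in brackets. Only genes with a peak are drawn, so Mir96 is not. Mir182 and Mir183, in red, lie at 27 and 24, and the lowest drawn gene of each other cluster lies at 18 or below. Mir292 and Mir292b overlap and share 1 peak.

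The last question was whether RNAs reported in the literature as targets of the cluster held AGO2 peaks. A list of 36 target genes of miR-182, miR-183 or miR-96 was used, in which a gene counted if its span held a peak midpoint. In Piranha 4 of the 36 had a peak, in Pyicoclip 7, in PIPE-CLIP 12 and in CIMS 0, and 15 had a peak in any list. Of all 21900 protein-coding genes, 2.89% had a peak in Piranha, 4.54% in Pyicoclip, 7.12% in PIPE-CLIP, 0.279% in CIMS and 9.77% in any list. The listed genes are long, with a median span of 60.8 kb against 17.1 kb for all protein-coding genes. Protein-coding genes with a peak in any list had a median of 47.7 kb, and the 15 listed genes with a peak had 93.1 kb. The part of span length in the count was not tested. Without PIPE-CLIP, 7 genes had a peak, against 4.58% of all protein-coding genes.

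Transcription factors of the FOXO family, well-known targets of the cluster, were among them. Foxo1, which restrains proliferation, had a Piranha peak at chr3:52325721-52325740 and a Pyicoclip peak at chr3:52325734-52325756, each with a score of 14. Foxo3, its paralog, had a Piranha and a Pyicoclip peak with a score of 12 each and 6 PIPE-CLIP clusters with scores of 10 to 20. The Foxo1 peaks lay at 70.2% of the length of the gene, read in its direction, and the Piranha and Pyicoclip peaks of Foxo3 at 46.5%. Here and below, such positions are along the whole gene span, introns included, and not along the mRNA. Whether a peak lay in an exon or an intron was not analysed. The Foxo3 clusters of PIPE-CLIP were spread from 12.9% to 98.4%.

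Of the other targets, Pdcd4, a tumour suppressor that inhibits translation initiation, and Fbxw7, the substrate receptor of a ubiquitin ligase, had a peak each in Piranha and Pyicoclip, with scores of 11 in both lists for Pdcd4 and 10 in both for Fbxw7. They lay at 25.3% of Pdcd4 and 11.4% of Fbxw7. Akap12, a scaffold of protein kinase A, and the transcriptional repressor gene Zeb1 had peaks in Pyicoclip and PIPE-CLIP, and those of Zeb1 scored highest, with 18 and 22. Clock, a core gene of the circadian clock, had 2 PIPE-CLIP clusters at 97.1% and 97.8% of the gene. Irs1, an adaptor of the insulin receptor, had 3 PIPE-CLIP clusters, at 6.52%, 95.2% and 96.5%. Idh2, the mitochondrial isocitrate dehydrogenase gene, and Sox6, a transcription factor gene, had 1 PIPE-CLIP cluster each, at 99.1% and 98.9%. Adcy6, Smad4, Mtss1 and Lrp6 had peaks in PIPE-CLIP alone.

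A strand was given for 8 of the 15 genes, and all 21 of their peaks were on the strand of the gene. Of these, 13 were PIPE-CLIP clusters, all in minus-strand genes, and 4 each came from Piranha and Pyicoclip. In the whole lists, 87.0% of PIPE-CLIP clusters were on the minus strand, against 50.2% of Piranha and 45.3% of Pyicoclip peaks. The part of this strand share in which targets had a PIPE-CLIP cluster was not tested. Over all protein-coding genes with a strand, 96.2% of PIPE-CLIP clusters, 69.3% of stranded Pyicoclip peaks and 57.9% of Piranha peaks were on the strand of the gene, so the match is near the background for PIPE-CLIP and rests on few peaks elsewhere. A peak in a target gene does not say which microRNA guided AGO2 there, and seed matches under these peaks were not analysed here.

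Of 20 markers of pluripotent cells, 8 had a peak: Lin28a, Trim71 and Pou5f1 among 10 protein-coding genes, and Mir302a, Mir302b, Mir302d, Mir292 and Mir293 among 10 microRNA genes. In any list, 9.77% of all protein-coding genes and 4.23% of all microRNA genes had a peak. Sox2 and Nanog had none. A peak list shows binding by AGO2 and not the level of an RNA, so a marker without a peak is not shown to be absent.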

How the data were processed

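AGO2-bound RNA of 3 HITS-CLIP libraries was analysed from 4 peak lists that the authors deposited, 1 per caller, with a score per peak in no stated unit. Reads went through cutadapt and Novoalign and the build was mm10, per the submitters' processing notes. Tool versions, caller settings and the pooling of libraries were not given in the sources used here. Per the labels' protocols, inserts were amplified by PCR and selected for size. Positions were converted to count from 1.

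Gene spans, strands and sequences came from RefSeq tables of GRCm38.p6. Of 1228 microRNA genes, 1072 had a sequence, and of 36 target genes, 22 had a strand. Peaks went to every gene with their midpoint in its span. Overlap meant at least 1 nt. Ranks count the peaks with a higher score. Hairpins were folded with RNAfold 2.7.2. Named genes were the members, Mir96, genes in or next to the window, neighbours in rank, the 5 most alike microRNA genes and the targets with a peak, of which 1 is not reported here by name. The members, lists and alternatives were chosen with earlier results of these data known, so no test was made.

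On simulated data, 200 of 200 peaks planted in microRNA genes were recovered. Their midpoints were placed inside the spans, so this checks the code of the midpoint rule and not the arm positions. Software was Python 3.11.15 with pandas 2.3.3, numpy 2.4.6, matplotlib 3.10.9 for figures and scipy 1.17.1.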

Additional observations from a re-analysis of the deposited data

How the results depend on the processing

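Of 39 values under alternative settings, 35 stayed within 1.5 times the count, or within the 95% Wilson interval of a rank or percentile, and 4 moved further. The interval is not a spread between libraries, so a rank that stayed inside it is not shown to be stable. The 5 member peaks were also found with midpoints inside the spans alone, with a window of 10 kb, by overlap of the window, after merging overlapping intervals and on the strand of the genes. With a score of at least 15, 4 remained, and PIPE-CLIP then had 0 genes of the cluster with a peak in place of 1. By the midpoint, 4 of the 5 peaks lay in the 5p arm in place of 5 by overlap. Of the 36 target genes, 7 had a peak without PIPE-CLIP and 7 with a score of at least 15, in place of 15, against 4.58% and 4.16% of all protein-coding genes, and the settings themselves drop peaks. The percentile of Mir182 in PIPE-CLIP was 28.9 in place of 21.5 with peaks of the same score counted as lower. With scores summed over the peaks of a gene, Mir182 was at rank 6 and Mir183 at rank 8 in Pyicoclip, in place of 3 and 5. By overlap of the span, Mir182 was at rank 9 in PIPE-CLIP in place of 7. These 3 rank changes were counted as inside the interval. No value per library was used, so no library could be left out. No paired analysis was possible because the libraries formed 1 group and no result comes from a test.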

Other observations

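The placement of Piranha peaks at the lower end of a site was also seen beyond microRNAs. Of 514 minus-strand Piranha peaks of 20 nt that met exactly 1 Pyicoclip peak of at most 60 nt, 94.9% held the end of that peak with the lower coordinate and 0.195% the end with the higher one. On the plus strand the shares were 92.3% and 1.01% of 496. The Mir183 peak was of this kind, and the Mir182 peak was 1 of 26 minus-strand peaks that held neither end.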
